A study of Homo sapiens with 18 samples.

Results

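The genes described here are 5 aldo-keto reductases, AKR1C1, AKR1C3, AKR1B1, AKR1B10 and AKR1A1, and 5 targets of the transcription factor NRF2, NQO1, GCLM, GCLC, HMOX1 and TXNRD1. They were found by symbol among the probe sets annotated with 1 gene, which gave 10 of 12750 genes and 15 of 20374 probe sets. These genes were selected on their values across the same 18 arrays, in every group and clone, so their values are descriptive and an adjusted p below only places a gene within the fit of all genes. The arrays, Affymetrix GeneChip Human Genome U133A 2.0, carried RNA from TC32 and TC71, established lines of Ewing sarcoma, a tumour of bone and soft tissue driven in most cases by the EWS-FLI1 fusion protein. YK-4-279, a small molecule, was reported to keep EWS-FLI1 from binding RNA helicase A. In each line there were 3 untreated parental arrays, 3 arrays of parental cells given 3 µM YK-4-279 for 72 h, and 3 arrays of resistant clones obtained by raising the dose to at most 3 µM over 7 months. The TC32 clones were C1, C4 and CP, and the TC71 clones were C3, C4A and C5, with 1 array each.

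The labels did not state whether the clones were in the compound at harvest, whether arrays of a group came from separate cultures, or that cells were kept for 7 months without the compound. The spread between parental arrays may therefore be technical. Both the 72 h and the resistant arrays were compared with the same parental arrays. The values were log2, scaled to the median of the probe set over the 18 arrays, so 0 is that median and levels cannot be compared between genes. TC32 parental replicate 1 lay nearer to TC71 parental replicate 1 (root mean square difference 0.690 over 1794 variable genes) than to its own group (1.04 to 1.19). TC71 parental replicate 2 lay nearest to a 72 h array. Replicates 1 and 3 of TC71 at 72 h differed by 0.249, less than any other pair of arrays, and replicate 2 of that group was 0.924 and 0.933 away from them. TC71 clone C5 lay nearest to TC32 parental replicate 1 (1.14). Of 8 Ewing sarcoma marker genes 7 were measured and 0 passed between treated or resistant and parental arrays (limma, at most 2 at unadjusted p under 0.05 in each), but values relative to a median cannot show whether a marker is present. Against the 72 h arrays, STEAP1 (0.82, adjusted p = 0.0105) and PRKCB (0.46, adjusted p = 0.0292) were higher in the TC32 clones and PRKCB (0.59, adjusted p = 0.0341) in the TC71 clones, and their part in the results below was not tested.

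Aldo-keto reductases use NADPH to reduce aldehydes and ketones, including steroids, prostaglandins, sugars and products of lipid peroxidation. NRF2 is held low by KEAP1, which marks it for degradation. When electrophiles or oxidants modify KEAP1, NRF2 accumulates and binds antioxidant response elements beside genes of glutathione synthesis, quinone reduction, heme breakdown and the thioredoxin system. Several human aldo-keto reductase genes, among them AKR1C1 and AKR1B10, are themselves known NRF2 targets.

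Promoters of 8 of the 10 genes were matched in a RefSeq table for GRCh38.p14, which gave 11 sequences of 300 bases, each from 250 bases before to 50 after a gene start. AKR1B10 and HMOX1 were not matched. The promoters of AKR1C1 (chr10:4963165-4963464, plus strand) and of AKR1C3 (chr10:5094164-5094463, plus strand) are shown because these neighbouring family members differed among the resistant clones. Capitals mark the longest run of letters shared by both, 19 bases long, which begins 84 bases before the start in AKR1C1 and 93 before it in AKR1C3.
AKR1C1: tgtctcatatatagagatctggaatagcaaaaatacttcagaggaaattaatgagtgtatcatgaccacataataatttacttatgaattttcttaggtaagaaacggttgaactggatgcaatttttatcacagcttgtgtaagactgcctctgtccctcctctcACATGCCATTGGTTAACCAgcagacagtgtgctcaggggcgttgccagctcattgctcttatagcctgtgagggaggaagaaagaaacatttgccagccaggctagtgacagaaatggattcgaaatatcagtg
AKR1C3: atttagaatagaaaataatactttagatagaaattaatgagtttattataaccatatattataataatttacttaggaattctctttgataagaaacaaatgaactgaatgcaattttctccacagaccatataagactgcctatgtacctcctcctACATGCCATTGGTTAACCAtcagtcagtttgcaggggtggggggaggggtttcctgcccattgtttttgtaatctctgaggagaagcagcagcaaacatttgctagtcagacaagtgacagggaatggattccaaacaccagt
That run was found on either strand in 3 of the 35116 promoters of the table (0.0085%). It was picked as the longest match of the promoters shown, which hold it by that choice, so the share is no test. Another AKR1C3 start (chr10:5048531-5048830, plus strand) shared a run of 18 bases with AKR1C1. The start with the longer run is the one shown.

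The promoters of GCLM (chr1:93909381-93909680, minus strand) and of TXNRD1 (chr12:104215529-104215828, plus strand) are shown because they hold the core of an antioxidant response element. Capitals mark each match to TGACNNNGC, searched on both strands with no other motif, and a match on the other strand reads as its reverse complement.
GCLM: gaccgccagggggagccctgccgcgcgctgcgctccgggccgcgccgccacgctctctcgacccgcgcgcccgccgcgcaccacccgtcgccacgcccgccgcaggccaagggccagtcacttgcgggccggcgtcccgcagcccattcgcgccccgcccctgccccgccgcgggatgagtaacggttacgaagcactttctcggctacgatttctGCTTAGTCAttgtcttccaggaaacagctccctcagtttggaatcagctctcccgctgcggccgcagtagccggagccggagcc
TXNRD1: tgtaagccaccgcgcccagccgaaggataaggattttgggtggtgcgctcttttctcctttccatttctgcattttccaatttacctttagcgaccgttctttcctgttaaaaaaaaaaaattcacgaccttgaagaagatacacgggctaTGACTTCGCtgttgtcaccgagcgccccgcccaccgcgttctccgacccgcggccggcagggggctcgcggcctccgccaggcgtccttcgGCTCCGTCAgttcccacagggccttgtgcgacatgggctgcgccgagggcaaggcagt
The GCLM match lies 34 bases before the start on the other strand. The TXNRD1 matches lie 99 bases before the start on the gene's own strand and 8 before it on the other. A further TXNRD1 start (chr12:104286782-104287081) held 1 match, so 3 of the 11 promoters of these genes held one, beside 13.35% of all promoters and 14.1% of those of genes on the array. A match is a run of letters and was not tested as a binding site.

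AKR1C3, also called prostaglandin F synthase, reduces steroids and prostaglandins. Its level was highest in the resistant TC71 clones. On the log2 scale it was 4.69 in C3, 5.30 in C4A and 2.46 in C5, while TC71 parental arrays stood at -1.27, 0.08 and -1.31. All 3 clones lay above each of the other 15 arrays, and C5 lay lowest of the 3. The difference from parental was 4.98 (SE 0.70, 95% interval 3.47 to 6.50), a 31.6-fold higher level, and it passed in the limma fit of all genes (adjusted p = 0.00603). In bulk RNA, more cells carrying a transcript and more transcript per cell cannot be told apart. Of the 10 genes 1, AKR1C3, passed in resistant TC71 clones, where 1.09% of all genes passed. Against the mean of the parental arrays, C3 was higher by 5.53, C4A by 6.13 and C5 by 3.29, so each clone held the direction. The difference was 5.44 (adjusted p = 0.00966) without the 2 parental arrays that stood apart, and with the 6 arrays fitted alone the same value had an adjusted p of 0.252.

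In TC32 the gene followed another order. AKR1C3 was -2.16, -1.41 and -1.04 in TC32 parental arrays, 0.97, 2.06 and 0.99 after 72 h, and -1.66 in C1, -0.19 in C4 and -0.08 in CP. The 72 h arrays lay above all parental and resistant arrays of TC32, and the clones overlapped the parental arrays. The difference at 72 h was 2.88 (SE 0.70, 7.34-fold) with an adjusted p of 0.0543, and without TC32 parental replicate 1 it was 2.56 (adjusted p = 0.149). In resistant TC32 clones the difference from parental was 0.89 (SE 0.70, adjusted p = 0.619), and it was 0.58 without parental replicate 1 and 1.40 without clone C1. The change in TC32 clones minus that in TC71 clones was -4.09 (SE 0.99, unadjusted p = 0.00122), and this line difference did not pass over all genes (adjusted p = 0.113).

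TC71 cells at 72 h had AKR1C3 at -0.12, 1.08 and 0.60, which overlapped the TC71 parental arrays, with a difference of 1.36 (SE 0.70, adjusted p = 0.556). By mean level the groups ran from resistant TC71 (4.15 ± 1.50, SD, n = 3) through TC32 at 72 h (1.34 ± 0.63), TC71 at 72 h (0.52 ± 0.60), resistant TC32 (-0.64 ± 0.89) and parental TC71 (-0.83 ± 0.79) to parental TC32 (-1.53 ± 0.57). Below resistant TC71, every pair of neighbours in that order overlapped array by array. Resistant TC71 clones exceeded TC71 cells at 72 h by 3.63 (SE 0.70, 12.4-fold, adjusted p = 0.0196), where 2.5% of all genes passed. That call was lost without TC71 72 h replicate 1 (3.31, adjusted p = 0.0844), without replicate 3 (3.67, adjusted p = 0.0611) and without clone C3 (3.36, adjusted p = 0.0521). Resistant TC32 clones differed from the TC32 72 h arrays by -1.99 on the log2 scale (SE 0.70), with an adjusted p of 0.0777. The SD of AKR1C3 over the 18 arrays was 2.07, above that of 99.5% of genes.

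**Figure D1:**
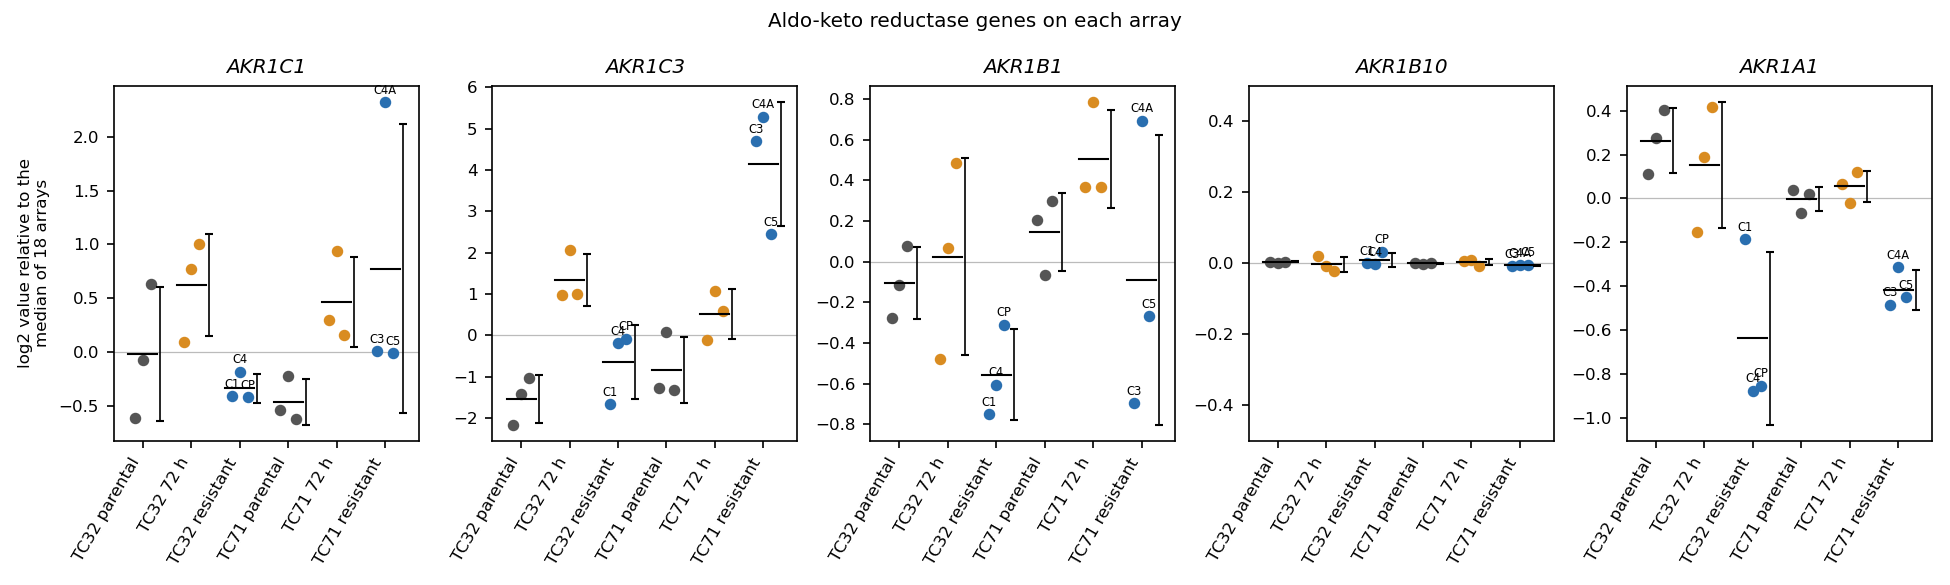
Aldo-keto reductase values on each of the 18 arrays (y axis, log2 relative to the median of 18 arrays; x axis, the 6 groups; each panel has its own scale). Points are arrays, with clone names on the resistant ones, short lines are group means and bars are 1 SD (n = 3). AKR1C3 lies at 2.46 to 5.30 in the TC71 clones, and AKR1B10 stays within 0.05313 over all arrays. Among the TC71 clones AKR1C1 is far highest in C4A (2.32), with C3 (0.0047) and C5 (-0.012) also above the TC71 parental arrays.

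AKR1C1 reduces progesterone and other steroids at a different position from AKR1C3. It is read by 3 probe sets, and their annotation places the first and the third at a second site on chromosome 10 as well. The 1 alignment of the second spans the site of the AKR1C3 probe set. In all 3 probe sets, signal from near-identical family members therefore cannot be separated. The first was 3.29 in clone C4A but 0.03 in C3 and -0.03 in C5, and -1.04, -0.62 and -1.28 in the TC71 parental arrays. The second probe set gave the same picture, at 3.71 in C4A and within 0.0019 of 0 in both other clones. The third hardly varied (SD 0.058).

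The mean of the 3 AKR1C1 probe sets in resistant TC71 exceeded parental by 1.24 (SE 0.53, adjusted p = 0.39). Without clone C4A that difference was 0.46 (adjusted p = 0.771). By this mean C3 (0.0047) and C5 (-0.012) also lay above all TC71 parental arrays (-0.54, -0.22 and -0.62). Of all genes 5.72% were higher without overlap in this comparison. The AKR1C2 probe sets, which read a closely related steroid reductase, followed the same arrays. The first AKR1C2 probe set was 3.69 in C4A, -0.012 in C3 and -0.011 in C5, and the second was 3.42 in C4A. Over the 18 arrays AKR1C1 and AKR1C2 correlated at r = 0.96, a description of arrays that share groups and of probe sets that share sequence. AKR1C4, a liver enzyme, was flat, at -0.035 to 0.067.

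At 72 h the first AKR1C1 probe set was 0.47, 2.24 and 0.47 in TC71 and 0.13, 1.06 and 1.80 in TC32. TC71 replicate 2 was the high array of its group. Averaged over probe sets, AKR1C1 differed from parental by 0.93 in TC71 (SE 0.53, adjusted p = 0.615) and by 0.64 in TC32 (SE 0.53, adjusted p = 0.779). The TC32 value was 0.35 without parental replicate 1 and 0.97 without replicate 3. TC32 parental arrays spread widely for this probe set, at -1.23, -0.17 and 1.58. The TC32 clones lay at -1.05, -0.51 and -1.15, inside that spread.

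**Figure D2:**
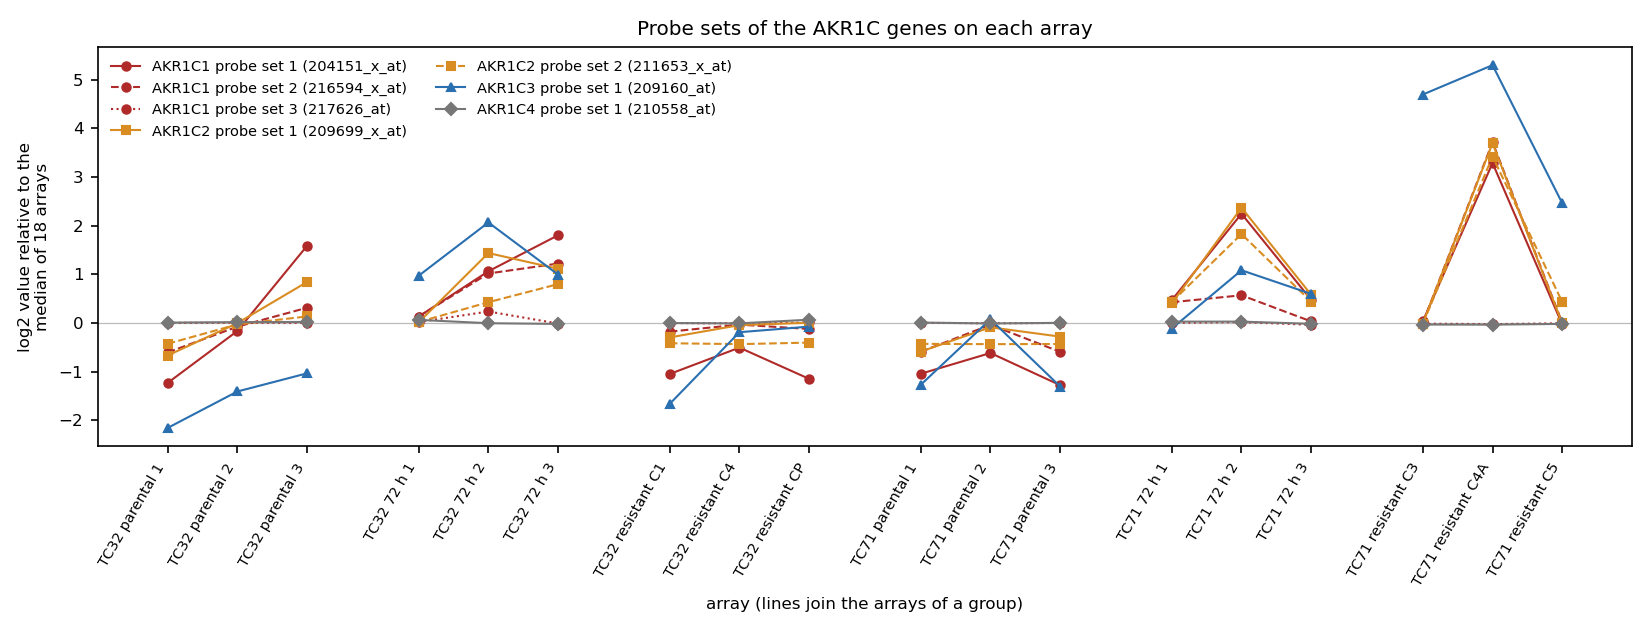
Values of the AKR1C probe sets on each array (y axis, log2 relative to the median of 18 arrays; x axis, arrays, joined by lines within a group). Colours and markers give the gene and line styles the probe set. AKR1C1 probe sets 1 and 2 and both AKR1C2 probe sets lie at 3.29 to 3.71 in TC71 clone C4A, while AKR1C3 is also high in C3 (4.69) and C5 (2.46).

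AKR1A1, aldehyde reductase, reduces many aldehydes and is widely expressed. It was lower in the TC32 clones, at -0.18 in C1, -0.88 in C4 and -0.85 in CP, than in TC32 parental arrays, at 0.11, 0.28 and 0.40. The groups did not overlap, and C4 and CP lay well below C1. The difference was -0.90 (SE 0.17, adjusted p = 0.00875). Of the 10 genes 2 fell in resistant TC32, where 398 of 12750 genes fell and 6.31% passed in either direction. Without TC32 parental replicate 3 the difference was -0.83 (adjusted p = 0.0504), and with the 6 arrays fitted alone the adjusted p was 0.166. AKR1A1 also fell below the TC32 72 h arrays (-0.15, 0.19 and 0.42) by 0.79 on the log2 scale (SE 0.17, adjusted p = 0.00807), where 14.8% of all genes passed.

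In TC71 the AKR1A1 values were 0.04, -0.07 and 0.02 in parental arrays, 0.07, -0.02 and 0.12 at 72 h, and -0.49 in C3, -0.31 in C4A and -0.45 in C5. All 3 TC71 clones lay below the other TC71 arrays. The difference from parental was -0.41 (SE 0.17, unadjusted p = 0.0304), with an adjusted p of 0.367. The TC32 change minus the TC71 change was -0.49 (SE 0.24, adjusted p = 0.458).

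AKR1B1, aldose reductase, converts glucose to sorbitol. It was -0.75 in C1, -0.60 in C4 and -0.31 in CP, below TC32 parental arrays at -0.27, -0.11 and 0.08, with a difference of -0.45 (SE 0.31, adjusted p = 0.518). The TC71 clones did not share 1 direction: AKR1B1 was -0.69 in C3, 0.69 in C4A and -0.27 in C5, around a parental mean of 0.15. At 72 h it was 0.37, 0.78 and 0.37 in TC71 and -0.48, 0.07 and 0.49 in TC32, and neither difference passed (adjusted p = 0.88 and 1.0). Without TC71 72 h replicate 2 the TC71 difference fell from 0.36 to 0.22. AKR1B10, a reductase of retinal and lipid aldehydes, ranged over 0.0531 in all, and its SD of 0.0115 lay above that of 5.33% of genes. Its probe set aligned to 3 sites, and at this flatness no difference was detectable.

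HMOX1 encodes heme oxygenase 1, which breaks heme down to biliverdin, iron and carbon monoxide. It was higher at 72 h than in the parental arrays of the same line, in both lines. In TC32 it was -1.38, -0.05 and 0.05 in parental arrays and 0.66, 1.65 and 2.04 at 72 h. In TC71 it was -1.47, -1.74 and -0.78 in parental arrays and 0.37, 3.42 and 0.56 at 72 h. In both lines the groups did not overlap. The difference was 1.91 in TC32 (SE 0.79, 3.77-fold, adjusted p = 0.262) and 2.78 in TC71 (SE 0.79, 6.88-fold, adjusted p = 0.189), so neither passed. Without TC71 72 h replicate 2 the TC71 value was 1.80 (adjusted p = 0.474), and without TC32 parental replicate 1 the TC32 value was 1.45 (adjusted p = 0.581).

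The HMOX1 values of the clones differed within each line. In TC32 they were -0.12 in C1, 0.65 in C4 and 1.66 in CP, a difference from parental of 1.19 (SE 0.79, adjusted p = 0.489), which was 0.73 without TC32 parental replicate 1 and 0.73 without clone CP. In TC71 they were -2.31 in C3, -1.51 in C4A and -0.48 in C5, which overlapped the parental arrays (difference -0.10, SE 0.79, adjusted p = 0.954). The TC71 clones all lay below the TC71 72 h arrays, by 2.88 in the mean (-2.88, SE 0.79, adjusted p = 0.0763).

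NQO1 encodes a quinone reductase that works without forming semiquinone radicals. In the mean it stood on opposite sides of parental in the clones of the 2 lines. The TC32 clones had NQO1 at 0.40 in C1, 0.73 in C4 and 1.02 in CP, against parental arrays at 0.76, 0.04 and -0.82, which overlapped them. The TC71 clones had it at -0.81 in C3, -0.32 in C4A and -0.29 in C5, below parental arrays at -0.22, 0.18 and -0.04. Of all genes 35.5% were lower without overlap in that TC71 comparison. The differences from parental were 0.72 in TC32 (SE 0.34, adjusted p = 0.266) and -0.45 in TC71 (SE 0.34, adjusted p = 0.734), and neither passed. The TC32 change exceeded the TC71 change by 1.17 (SE 0.48, unadjusted p = 0.0307, adjusted p = 0.343). The TC32 difference rested on single parental arrays: it was 1.10 (adjusted p = 0.0444) without replicate 1, which stood apart, and 0.32 (adjusted p = 0.858) without replicate 3. It passed in 1 of 16 alternatives. Without clone C3 the TC71 difference was -0.28.

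At 72 h NQO1 was 0.53, 1.36 and 0.43 in TC71, above all TC71 parental arrays, with a difference of 0.79 (SE 0.34, adjusted p = 0.418), which was 0.50 (adjusted p = 0.952) without replicate 2. In TC32 at 72 h it was -0.38, -0.15 and -0.36, within the parental spread (difference -0.29, SE 0.34, adjusted p = 1.0). The 3 NQO1 probe sets gave the same sign as their mean in each of these 4 comparisons with parental.

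GCLM and GCLC encode the modifier and the catalytic subunit of glutamate-cysteine ligase, the first enzyme of glutathione synthesis. GCLC was lower in the TC32 clones, at -0.46 in C1, -0.93 in C4 and -0.51 in CP, than in TC32 parental arrays at -0.03, 0.02 and 0.11. The groups did not overlap, and C4 lay lowest. The difference was -0.67 (SE 0.18, adjusted p = 0.0419), a call that was lost in 12 of 16 alternatives. Leaving out TC32 parental replicate 1, 2 or 3 gave adjusted p = 0.0535, 0.124 and 0.157 for GCLC, and leaving out clone C4 or CP gave 0.154 and 0.0634. GCLC also fell below the TC32 72 h arrays (0.09, -0.02 and 0.07), by 0.68 on the log2 scale (SE 0.18, adjusted p = 0.0212), and lost that call without any 1 of those 72 h arrays (adjusted p = 0.0505, 0.0517 and 0.0697) or without clone C4 (0.0868).

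In TC71, GCLC was 0.06, -0.29 and -0.09 in parental arrays and 0.02 in C3, 0.04 in C4A and -0.29 in C5, a difference of 0.030 (SE 0.18, adjusted p = 0.936). GCLM differed by clone: it was -1.58 in C3, -1.78 in C4A and -0.13 in C5, against 0.02, -0.15 and -0.25 in TC71 parental arrays. C5 lay among the parental arrays and both other clones lay far below them. The GCLM difference was -1.04 (SE 0.38, adjusted p = 0.282), and it passed in 1 of 14 alternatives. Without clone C5 it was -1.55 (adjusted p = 0.0123), and without clone C4A it was -0.73 (adjusted p = 0.532).

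Against TC71 at 72 h, where GCLM was 0.19, 1.29 and 0.18, it fell in the clones by 1.71 on the log2 scale (SE 0.38, adjusted p = 0.0354). That GCLM call was lost without 72 h replicate 1, 2 or 3 (adjusted p = 0.0666, 0.109 and 0.063), without clone C3 (0.0999) or C4A (0.0773), and without the 2 parental arrays that stood apart (0.0629). In TC32, GCLM stayed between -0.06 and 0.55 over all 9 arrays.

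TXNRD1 encodes cytosolic thioredoxin reductase, which keeps thioredoxin reduced. It was 0.05, -0.20 and -0.48 in TC32 parental arrays, -0.11, -0.12 and -0.37 at 72 h, and 0.03 in C1, 0.30 in C4 and 0.28 in CP. The difference in the TC32 clones was 0.41 (SE 0.26, adjusted p = 0.471). In TC71 it was 0.0065, -0.079 and 0.083 in parental arrays and -0.0065 in C3, -0.41 in C4A and 0.19 in C5, which overlapped. At 72 h in TC71, TXNRD1 was -0.010, 1.17 and 0.021, so replicate 2 stood alone (difference 0.39, SE 0.26, adjusted p = 0.724, and 0.0021 without that array).

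**Figure D3:**
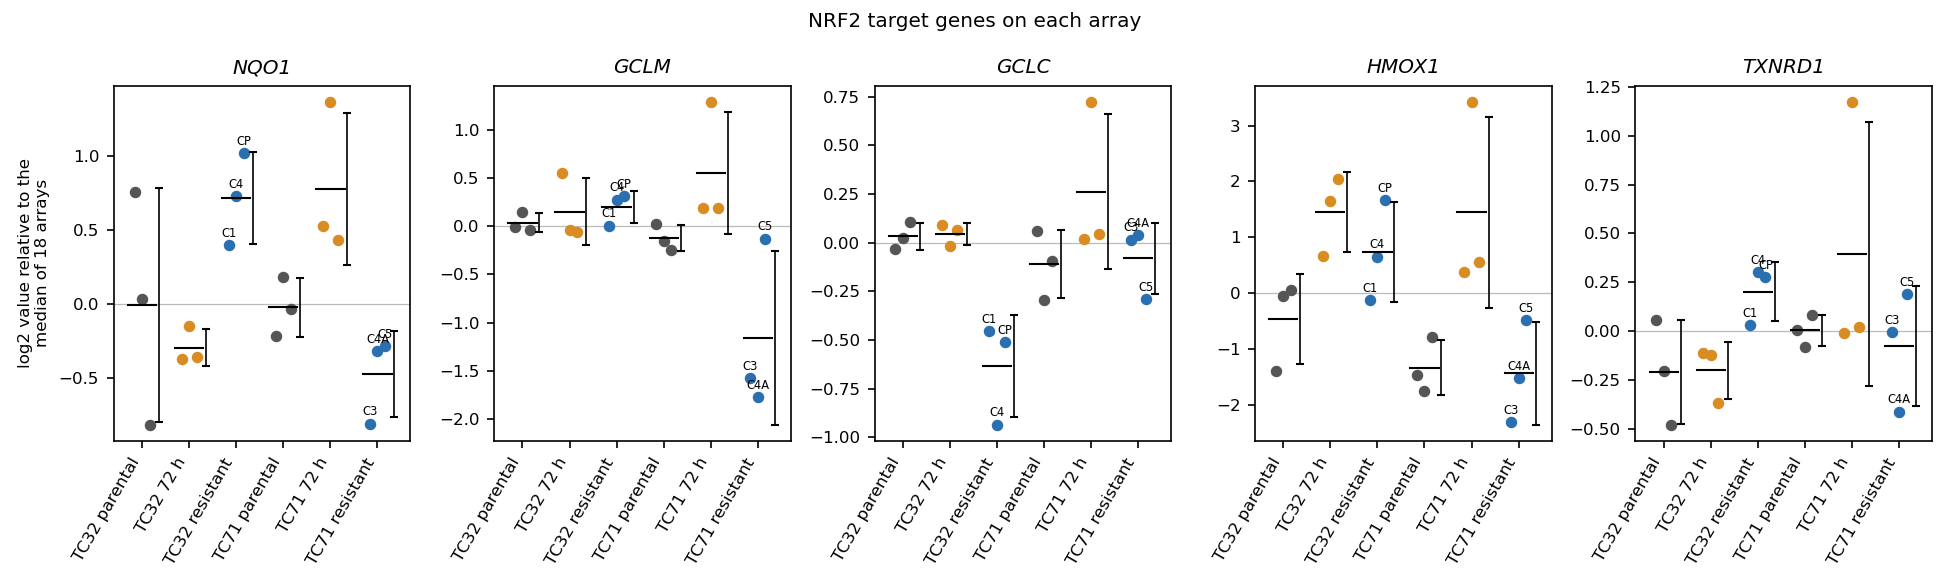
NRF2 target values on each of the 18 arrays (y axis, log2 relative to the median of 18 arrays; x axis, the 6 groups; each panel has its own scale). Points are arrays, with clone names on the resistant ones, short lines are group means and bars are 1 SD (n = 3). The middle TC71 72 h point, replicate 2, is the highest of its group in all 5 panels, and GCLC is lowest in the TC32 clones (-0.93 to -0.46).

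TC71 72 h replicate 2 was the highest array of its group for 9 of the 10 genes and for 5 of the 5 NRF2 targets, while it was highest for 54.5% of all genes. It was highest by at least 0.5 for 6 of the 10 genes and all 5 NRF2 targets, against 4.54% of all genes. Replicates 1 and 3 were nearly alike, at 0.37 and 0.56 for HMOX1 and at 0.19 and 0.18 for GCLM. What sets replicate 2 apart was not tested.

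Considered by comparison, 0 of the 10 genes passed in TC32 at 72 h (limma, 2 at unadjusted p under 0.05), where 2.2% of all genes passed. None passed in TC71 at 72 h (0 of 10, 2 at unadjusted p under 0.05), where 0.149% of all genes passed. Groups of arrays did not overlap for 2 of the 10 in TC32 at 72 h, both higher. Of all genes 10.4% were higher in this way, and 20.2% did not overlap in either direction. In TC71 at 72 h they did not overlap for 5, all higher, against 13.3% of all genes higher and 25.2% in either direction. The median of the 10 differences there was 0.53, beside 0.0040 over all genes, and without TC71 72 h replicate 2 it was 0.27. In TC32 it was 0.065, beside -0.0027, and ran from 0.016 to 0.096 with 1 array left out.

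In the clones the counts of groups that did not overlap with parental were 3 of 10 in TC32, all lower. Of all genes 10.1% were lower in this way, and 21.2% did not overlap in either direction. In TC71 they were 5 of 10, 2 higher and 3 lower, where 5.72% of all genes were higher and 35.5% lower (41.2% in either direction). The 3 lower include the flat AKR1B10, at a difference of -0.0054. The median difference of the 10 genes was 0.084 in TC32 clones and -0.090 in TC71 clones, beside 0.0029 and -0.012 over all genes. With 1 array left out it ran from 0.050 to 0.14 in TC32 and from -0.21 to -0.011 in TC71. Between parental TC32 and parental TC71, 0 of the 10 genes passed (limma, 0 at unadjusted p under 0.05), where 0.0471% of all genes passed. For the line difference in the 72 h change the count was 0 (1 at unadjusted p under 0.05, NQO1), with 0.376% of all genes passing, and for that in the resistant change it was 0 (4 at unadjusted p under 0.05), with 0.235% passing.

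**Figure D4:**
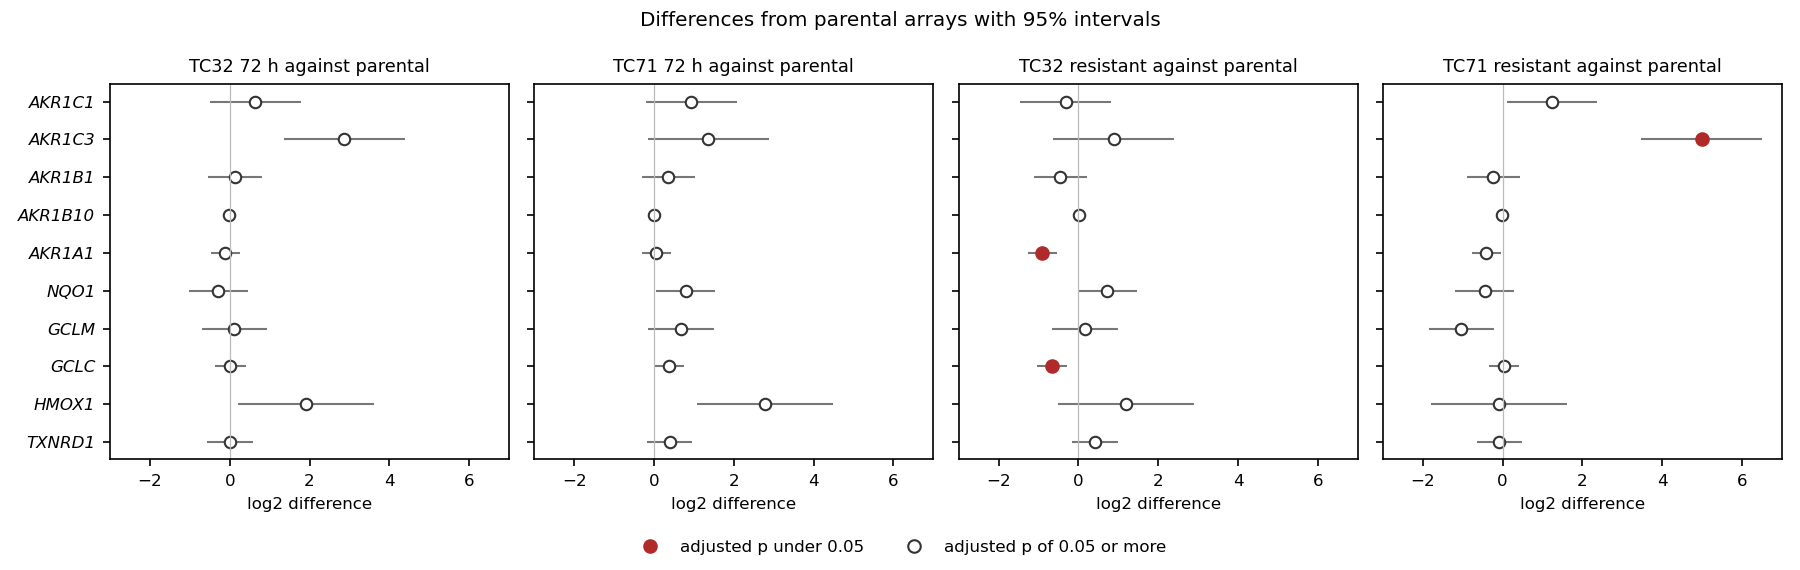
Log2 difference from the parental arrays of the same line (x axis) for each of the 10 genes (y axis) in 4 comparisons, with 95% intervals from the limma fit. Filled points passed at adjusted p under 0.05 and open points did not. AKR1C3 in TC71 clones (4.98) and AKR1A1 (-0.90) and GCLC (-0.67) in TC32 clones are filled.

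Correlations over the 18 arrays describe how the 10 genes ran together, on arrays that share groups and lines. The closest pairs were TXNRD1 with NQO1 (Pearson r = 0.74, Spearman rho = 0.69), GCLM with HMOX1 (r = 0.71, rho = 0.69) and AKR1C1 with AKR1C3 (r = 0.67, rho = 0.69). For AKR1C3 and GCLM r was -0.61 but rho only -0.25, with TC71 clones C3 and C4A at the far end of both genes. For AKR1C3 and HMOX1 r was -0.092 and rho 0.11. Among 1789 genes with an SD over 0.5, those most like AKR1C3 were GLIPR1 (r = 0.88), CPEB1 (r = 0.83) and RAB31 (r = 0.82). Those most like HMOX1 were GCC1 (r = 0.78), AP5Z1 (r = 0.78) and ZNF767P (r = 0.77), and after AKR1C2 those most like AKR1C1 were SLC43A1 (r = 0.90) and PECR (r = 0.87).

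The lists that follow are read beside the shares of all genes that passed in either direction. These were 2.2% in TC32 at 72 h, 6.31% in TC32 clones, 0.149% in TC71 at 72 h and 1.09% in TC71 clones. Of 14 genes of the NRF2 pathway, the gene of NRF2 itself among them and all measured, 1 rose in TC32 at 72 h. In TC32 clones 2 of them (KEAP1 and GSK3B) rose. In TC71 0 passed at 72 h (limma, 5 at unadjusted p under 0.05) or in the clones (2 at unadjusted p under 0.05). KEAP1, the repressor of NRF2, was 0.26 in C1, 0.33 in C4 and 0.66 in CP, above TC32 parental arrays at -0.17, -0.26 and -0.35 (difference 0.68, SE 0.14, adjusted p = 0.0125). GSK3B, a kinase that marks NRF2 for degradation, rose in TC32 at 72 h by 1.17 (SE 0.17, adjusted p = 0.00337) and in the TC32 clones by 0.76 (SE 0.17, adjusted p = 0.0177). NFE2L2, the gene of that list which encodes NRF2 itself, is named here after its values were seen. It differed from parental by 0.27 in TC32 and by 0.50 in TC71 at 72 h (SE 0.15, adjusted p = 0.481 and 0.21).

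Of 12 measured genes of the glutathione and thioredoxin system, TXN fell in TC32 at 72 h, from parental values of -0.11, -0.41 and -0.51 to -0.79, -1.50 and -1.56 (difference -0.94, SE 0.17, adjusted p = 0.0163). TXN encodes thioredoxin, the substrate of TXNRD1, and it was the 1 gene of that list to pass against parental in any of the 4 comparisons. Of 9 heme and iron genes 2 rose in the TC32 clones. BLVRB, a biliverdin reductase, rose by 0.97 (SE 0.24, adjusted p = 0.0345) and ALAS1, which starts heme synthesis, by 0.47 (SE 0.10, adjusted p = 0.0177). The biliverdin reductase BLVRA, on the same list, did not pass (mean -0.10 in TC32 parental arrays and 0.060 in TC32 clones). Of 16 measured detoxification genes 1 passed in TC32 clones and 1 in TC32 at 72 h: the quinone reductase NQO2 rose in TC32 clones by 0.78 (SE 0.22, adjusted p = 0.0496) and the reductase DHRS2 rose in TC32 at 72 h by 6.10 (SE 0.90, adjusted p = 0.00446).

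None of the 8 other measured aldo-keto reductase genes passed in any of the 9 comparisons (limma, at most 2 at unadjusted p under 0.05 in each), and none of the 7 NADPH supply genes passed against parental (at most 3 at unadjusted p under 0.05). In TC71, the 1 gene of these 6 lists to pass was TRIM16, a tripartite motif protein, lower in the clones than at 72 h (-2.52, SE 0.44, adjusted p = 0.0119). There 2.5% of all genes passed. For TC32 clones against 72 h, 14.8% of all genes passed in either direction. Beside that share, 1 of 14 NRF2 pathway genes passed, 2 of 12 glutathione and thioredoxin genes and 1 of 7 NADPH supply genes. Of 9 heme and iron genes 2 rose and 1 fell, and of 16 detoxification genes 1 rose and 2 fell. Higher in the clones were TXN (1.47), PRDX6 (0.46), TALDO1 (0.62), BLVRB (0.99), ALAS1 (0.40) and NQO2 (1.12). Lower were NFE2L1 (-1.67), ABCB6 (-0.56), DHRS2 (-3.72) and DCXR (-0.72). Of 10 marker genes of other cell types, the epithelial keratin KRT18 fell in the TC32 clones, where AKR1A1 and GCLC fell (-3.86, SE 0.65, adjusted p = 0.00515). The other 9 did not pass. Against parental, 7 of the 10 were higher in TC32 clones and 2 in TC71 clones. The epithelial marker EPCAM had a mean of -0.11 in TC32 parental arrays and 1.05 in TC32 clones. In TC71 these EPCAM means were 0.73 and 1.29. The blood marker PTPRC had means of 0.0030 and 2.58 in TC32, and of -0.0046 and 1.74 in TC71. The other blood and macrophage markers did not follow it. CD68 had means of 0.078 and 0.0029 in TC32 and of -0.0024 and -0.049 in TC71. LYZ had means of 0.018 and 0.026 in TC32 and of -0.00087 and -0.043 in TC71. At unadjusted p under 0.05 (limma) 1 of the 10, KRT18, differed in TC32 clones and 0 in TC71 clones. The part of these markers in the results above was not tested.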

How the data were processed

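RNA of 18 cell line samples was amplified, biotin-labelled and hybridised to Affymetrix GeneChip Human Genome U133A 2.0 arrays, per the labels' protocols. The deposited log2 values were made by the authors with default settings of GeneSpring GX 12.1, per the labels' protocols, and in the file each of 22277 probe sets has a median of 0 over the arrays. The background correction and summarisation are not given in the sources used here. No absolute level or detection call was used, so dim genes could not be filtered, and 35.0% of probe sets had an SD under 0.05. The array annotation names no genome build, so only promoter coordinates, from RefSeq for GRCh38.p14, are printed. The number of arrays limits the precision.

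Probe sets for controls (62), several genes (583) or no gene (1258) were left out, and a gene's value is the mean of its probe sets, for 12750 genes. Symbols were updated by Entrez ID for 20226 probe sets, which changed 1672. One model of the 6 group means was fitted to the 18 arrays with limma 3.58.1 in R 4.3.3 (lmFit, contrasts, eBayes, 12 residual degrees of freedom), with Benjamini-Hochberg adjustment over all genes for each of 9 comparisons. A gene was called at adjusted p under 0.05. The fit was tested on simulated data. Errors are SE of the fit or SD over arrays (n = 3), and p-values are two-sided. The 10 genes and the gene lists were chosen with earlier results of these data known. Named beside them are up to 3 genes per list and comparison that passed, and the 3 genes most correlated with AKR1C3, HMOX1 and AKR1C1. The labels name no pairing, so no replicate block was in the main fit. Deviations of parental and 72 h arrays of the same number correlated at 0.012 to 0.33 in TC32 and -0.023 to 0.041 in TC71. For different numbers the range was -0.34 to 0.11 in TC32 and -0.061 to 0.072 in TC71. In TC32, 2 of 3 parental and 2 of 3 72 h arrays correlated best with their own number. A pairing in TC32 therefore cannot be told from these values.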

Additional observations from a re-analysis of the deposited data

How the results depend on the processing

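Of 657 alternative values for the 10 genes, 618 kept their side of the threshold, 34 lost a call, 5 gained one and 0 reversed. AKR1C3 in TC71 clones against parental kept its call in 13 of 14 alternatives, and whichever array was left out. With only the 6 arrays compared in the fit, each of the 7 calls among the 10 genes was lost, at the same differences (adjusted p from 0.0536 for GCLC in TC32 clones against 72 h to 0.43 for GCLM in TC71 clones against 72 h). With quantile normalization repeated, 3 were lost: both GCLC calls (0.0947 and 0.0649) and AKR1C3 in TC71 clones against 72 h (0.0685). Gained calls were AKR1C3 in TC32 at 72 h with the most variable probe set (adjusted p = 0.0484) or an SD of at least 0.1 (0.0268), HMOX1 in TC71 at 72 h after a further quantile normalization (0.0371), and 2 given above for NQO1 and GCLM with 1 array left out. NQO1, AKR1A1 and AKR1B10 have no value without probe sets ending in _x_at or _s_at. Averaging only the 2 AKR1C1 probe sets that varied, an alternative chosen after seeing the data, gave a TC71 clone difference of 1.86 (adjusted p = 0.386).

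The counts of genes passing were 281 and 19 at 72 h in TC32 and TC71, 805 and 139 in their clones against parental, 1890 and 319 in clones against 72 h, 6 between parental lines, and 48 and 30 for the line differences at 72 h and in clones. They moved by more than 1.5 times as follows, in that order. With quantile normalization repeated, 476 genes passed in TC71 at 72 h, 241 in TC71 clones against parental, 1084 in TC32 clones against 72 h, 209 between parental lines and 55 for the clone line difference. Without _x_at and _s_at probe sets the 9 counts were 184, 10, 436, 47, 1086, 133, 2, 17 and 12. Fitting only the groups compared gave 171, 290, 68, 0, 1034 and 14, and 164 and 0 for the line differences. With an SD of at least 0.1, 10 passed between parental lines and 57 for the clone line difference. Trend and robust variance gave 8 in TC71 at 72 h, 2 between parental lines and 21 for the 72 h line difference. Without the 2 parental arrays that stood apart, 149 and 81 passed at 72 h, 243 between parental lines, and 77 and 177 for the line differences. Leaving out 1 array gave 68 to 673, 5 to 41, 243 to 1214, 19 to 408, 991 to 1984, 114 to 533, 0 to 266, 18 to 100 and 6 to 289. With the replicate number as a block, 1 gene passed in TC32 and 2 in TC71 at 72 h and 115 for the line difference. The labels do not say whether the numbers pair the arrays. The cause was not tested.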
